A study of Rattus norvegicus with 31 samples.

Results

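The livers described here came from the 8 vehicle control rats of a 28-day gavage study of pesticides, out of 31 livers sequenced in all. They were chosen by their group label alone, and no value was used to choose them. The animals were young adult female Wistar rats, and the controls received only the vehicle, 0.5% carboxymethyl-cellulose in water at 7.5 ml per kg body weight and day, while kept under 12 h of light and 12 h of dark. The other 23 rats received thiacloprid (THI, 108 mg per kg body weight and day, 4 rats), imazalil (IMZ, 93 mg, 4 rats), clothianidin (CTD, 288 mg, 3 rats), THI + IMZ (54 + 46 mg, 4 rats), THI + CTD (54 + 134 mg, 4 rats) or IMZ + CTD (46 + 135 mg, 4 rats) in the same vehicle. They are used here only to see whether a gene that differed among controls also differed among rats on 1 treatment. All rats were of 1 sex and 1 outbred stock, and each library stands for 1 piece of frozen liver of 1 rat, from which the hilus and connective tissue had been cut away. Litter, order of necropsy and time of death of the single rats were not given in the sources used here.

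The liver takes up nutrients and drugs from portal blood, makes most proteins of the plasma, and turns cholesterol into bile acids and ammonia into urea. Hepatocytes hold most of its RNA, and sinusoidal endothelium, Kupffer cells, stellate cells and bile duct cells hold the rest. Many of its genes follow feeding, the time of day, stress hormones and chemicals taken up with food, so that animals of 1 untreated group can differ in them. The comparisons below ask which genes dominate the untreated liver and which of them differ between rats by more than the counting of reads allows.

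The 8 control libraries held between 32.7 M and 101 M counts, with a median of 60.5 M. Between 15464 and 17633 of the 26312 listed genes had at least 1 count in a library, 14069 had a count in all 8, and 6717 had none in any. Log2 CPM (CPM is a gene's count per 1000000 counts of the library, scaled by the trimmed mean of M-values, TMM) of any pair of controls correlated with r between 0.978 and 0.991 across genes. Control 2 stood apart from the others: its median correlation with the other controls was 0.983, against 0.986 to 0.990 for the others, and it was also the library with the fewest counts. Where leaving out 1 rat ended a call given below, or moved a count of calls or a called coefficient by more than 1.5 times, the value without that rat follows. Since the livers were sequenced whole, fewer cells of a type and less RNA per cell cannot be told apart in any value below.

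The label as female liver was checked on sex-biased genes. Cyp2c12, the steroid hydroxylase that marks the female rat liver, was read at 5121 CPM (SD 349, n = 8), whereas the male-specific Cyp2c11 averaged 0.0798 CPM and Hsd3b5 0.00916 CPM, and Obp3 and Mup5 had no count. Other genes listed as male-biased were read at higher levels, with 354 CPM for Rgn, 174 CPM for Ust5r and 71.1 CPM for Cyp4a2, and the 10 listed rows summed to 538 to 712 CPM. Most of the 23 listed markers of the exocrine pancreas were too low to test, and Pnlip, Prss2 and Try4 had no count in any control. The list was not at 0 as a whole, and summed to 267 CPM in Control 4 and 552 CPM in Control 3. The largest part in both was Cpa1, which encodes a carboxypeptidase, with 185 CPM in Control 4 to 459 CPM in Control 3. Of the 4 listed markers with enough counts to test, 3 varied more than the abundance trend described below. Most T cell, B cell and granulocyte markers were too low to test: Cd3e averaged 0.0546 CPM and S100a9 0.0863 CPM.

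Abundance was concentrated in few genes. The 10 most abundant genes took 27.9% ± 1.18 (SD, n = 8) of all counts, the 100 most abundant took 53.2% ± 1.10, and between 62 and 84 genes were enough to reach 50% of the counts of a library. Between 2634 and 2854 genes reached 90%. Shares of reads rank how much of a library a gene takes and not molecules, as a long transcript gives more reads and transcript lengths were not used here.

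Alb, which encodes serum albumin, led every library with 13.6% ± 1.17 of the counts. Tf, the iron carrier transferrin, followed with 4.56% ± 0.286, and C3, the central complement component, with 2.20% ± 0.0982. Apoe, a ligand for lipoprotein receptors, took 1.72% ± 0.144. Gc, the vitamin D binding protein, and Ahsg, or fetuin-A, took 1.02% ± 0.0587 and 0.9998% ± 0.105. Coefficients of variation among rats were 11.1% for Alb, 6.41% for Tf and 4.24% for Gc. The median was 11.2% over all genes tested and 10.8% over those at 1000 CPM and more, so Alb varied about as much as other genes.

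COI, the mitochondrial subunit 1 of cytochrome c oxidase, had rank 7 with 0.979% ± 0.168 and was the only transcript of the mitochondrial genome among the first 20. Apob, the structural protein of very low density lipoprotein, came next with 0.964% ± 0.135. Only Cps1, which makes carbamoyl phosphate for the urea cycle, and Cyp2c7, a retinoid and drug hydroxylase, encode enzymes of the cell itself among the next 12 genes, with 0.749% ± 0.0961 and 0.703% ± 0.120. The other 10 were Pzp, Serpina1, Cpamd8, Hp, Itih4, A1bg, Mug1, Itih3, Fgb and FGA, which mostly encode protease inhibitors, carriers and clotting proteins. Together the 52 listed plasma proteins took 37.3% ± 1.19 of all counts. Against that the 13 mitochondrial mRNAs took 1.25%, 101 listed ribosomal protein genes 0.983%, and 83 listed nuclear genes of oxidative phosphorylation 0.903%. The counts hold uniquely mapped reads only, so reads that match several places in the genome equally well are missing. Shares of genes with near-identical copies elsewhere can therefore be too low, and how far this holds for these lists was not tested.

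**Figure D1:**
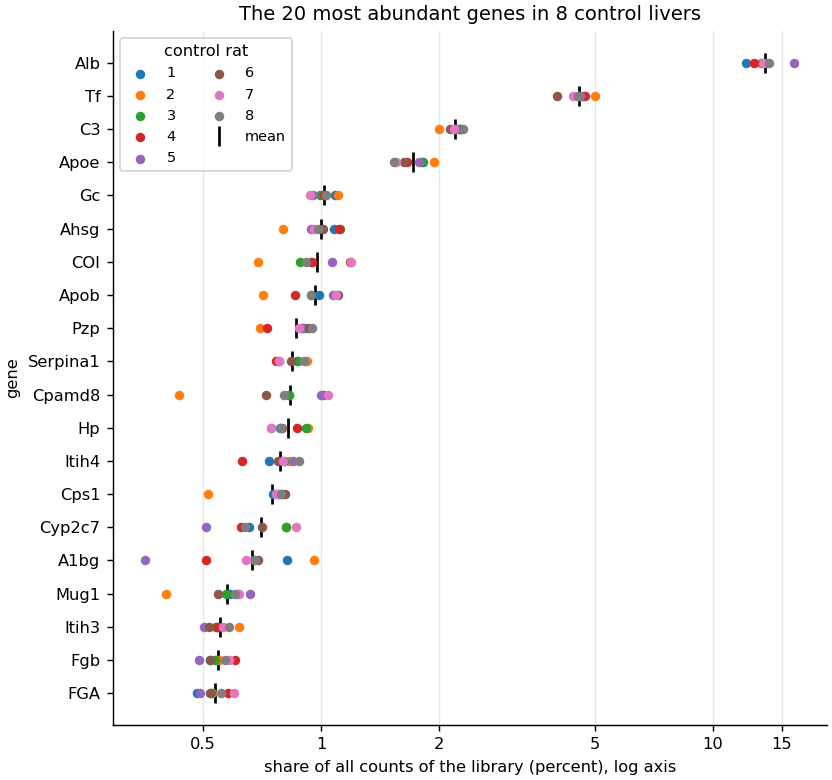
Share of all counts of a library, in percent on a log axis, taken by the 20 genes with the highest mean CPM, with 1 point for each of the 8 control rats and a tick for their mean. Alb leads in all 8 rats, and Control 2 has the lowest share of COI, Apob, Cpamd8, Cps1 and Mug1.

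The most abundant genes were not the most variable. Cpamd8, an alpha-2-macroglobulin relative, had the largest spread of the first 20, with 4219 CPM in Control 2, a median of 8242 CPM and 10514 CPM in Control 5, and a coefficient of variation of 27.8% that fell to 15.1% without Control 2. A1bg, whose level is higher in female than in male rats, was next with 3754 CPM in Control 5, a median of 6786 CPM and 9359 CPM in Control 2. Control 5 was lowest in A1bg and highest in Alb. None of the first 20 genes was called more variable than genes of like abundance by either edgeR-based test described next, with 2 at an unadjusted p under 0.05 by each test, and none was a dispersion outlier of DESeq2.

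Spread was measured for 12382 genes with enough counts to test, of which 11901 carry a symbol. The coefficient of variation among rats is the spread that remains once counting noise has been taken out, and was estimated for each gene from its negative binomial dispersion. Its median over genes was 11.2% (jackknife SE 1.08, n = 8 rats), and the middle 80% of genes lay between 4.92% and 28.0%. More variable than counting noise were 11424 genes, or 92.3% of those tested (edgeR fit with dispersion 0, Benjamini-Hochberg adjusted). At this depth nearly all genes differed between untreated rats by more than their reads alone would give, so this call says little about any single gene.

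The median coefficient depended on abundance. It was 24.5% for the 1206 genes under 1 CPM, 13.9% from 1 to 10 CPM, 8.88% from 10 to 100 CPM, 8.93% from 100 to 1000 CPM and 10.8% for the 108 genes at 1000 CPM and more. Counting noise alone had a median of 17.1% in the lowest class and 0.277% in the highest. Coefficients over 50% were found for 203 genes and over 100% for 6.

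Genes that stood above the trend of dispersion with abundance fitted by edgeR were sought in 2 ways. This trend lay higher than the class medians given above, for example at 17.1% for Alb and 13.4% for Fto (36.9 CPM). A gene below it thus need not vary less than most genes of like abundance. With a test that allows for the scatter of genes around the trend, 1 gene was called, or 0.00808% of those tested, with 809 genes at an unadjusted p under 0.05 (edgeR and limma, n = 8). It was ENSRNOG00000048890, which carries no symbol in the files: it had 226, 3.78, 2.60, 6.35, 4.99, 12.3, 5.25 and 13.4 CPM in Controls 1 to 8, so that Control 1 alone was high, and its coefficient of 149% fell to 57.6% without that rat. With the trend taken as exactly known, 611 genes were called, or 4.93% of those tested. This second test was chosen after the first had been seen and does not allow for the scatter of genes around the trend, so that it serves to rank genes. The genes described below as above the trend are those 611. Each list count given below for the controls stands against this 4.93% of all genes tested. In a short list, a count of 0 or 1 lies near that share. Control 2 had the highest value in 121 of them and the lowest in 165, Control 7 the highest in 119 and Control 4 the lowest in 99. Without Control 2, 525 genes were called, 465 of them among the 611.

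**Figure D2:**
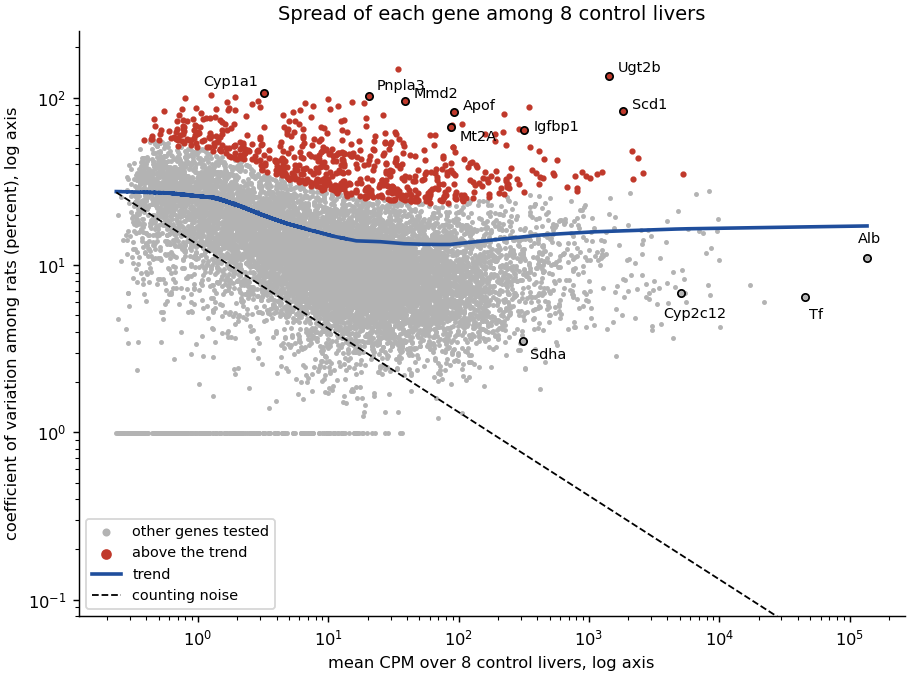
Coefficient of variation among the 8 control rats against mean CPM, both on log axes, for 12382 genes, with the 611 above the trend in red, the trend in blue and the counting noise of an average library as a dashed line. Ugt2b and Scd1 lie far above the trend at more than 1000 CPM, and Alb and Tf below it, while the row of points at 0.988% holds the 237 genes at the smallest value the estimate gives.

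Among those of the 611 genes that have a symbol and a mean of at least 1 CPM, the 20 with the largest coefficients were Ugt2b, Cyp1a1, Scube3, Pnpla3, Cadps, Zap70, Mmd2, Plekhd1, Nptx2, Zfp39, 1100001G20Rik, Abcd2, Aox3l1, Pnpla5, Inmt, Lppr4, Fabp4, Nov, Slc24a3 and Hcn2, at 84.9% to 135%. Genes without a symbol, such as ENSRNOG00000048890 with 149%, were not ranked. Of these 20, 16 were called whichever single rat was left out. Mmd2 lost its call without Control 4 (coefficient 22.3%), Abcd2 (from 91.7% to 44.9%) without Control 6, Lppr4 (from 87.1% to 29.9%) without Control 7 and Fabp4 (from 86.1% to 43.9%) without Control 1. Among genes with a symbol and a mean of at least 50 CPM the 10 largest were Ugt2b, Scd1, Apof, Scd, G0s2, Rgs16, Mt2A, Retsat, Igfbp1 and Adh6, at 62.2% to 135%, and 9 of them were called whichever rat was left out, Apof and Control 4 being the exception. The order in both rankings depends on the estimate. Taken from the variance of the deposited normalised counts, less counting noise, Ugt2b had 55.6% and Mmd2 46.1%. By the same estimate Apof had 124%, Abcd2 128% and Lppr4 126%.

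A set of genes fell into separate levels. Ugt2b, a UDP-glucuronosyltransferase that conjugates steroids, had 974, 1036, 986, 0.227, 1962, 2204, 1985 and 2171 CPM in Controls 1 to 8. Control 4 was thus close to 0, Controls 1 to 3 lay near 1000 CPM and Controls 5 to 8 near 2000 CPM, with no value between. Without Control 4 its coefficient fell from 135% to 37.9%. The adjusted p over the 8 rats was 3.22e-119 with the trend taken as known (edgeR dispersions), a test that serves only to rank genes. By the test that allows for the scatter of genes (edgeR and limma) the adjusted p was 0.0552, and Ugt2b was not called. Taken instead from the variance of the normalised counts, less counting noise, the coefficient over the 8 rats was 55.6%. Ranges were also drawn over all 31 livers, after their values had been seen, so that every treated rat lies in one of them. Of the 31 livers, 4 (1 of them a control) had 10.03 to 36.6 normalised counts as deposited, 15 (3 controls) had 42898 to 56146 and 12 (4 controls) had 82070 to 111009. The highest control had 97145. The counts hold uniquely mapped reads only, so reads that match near-identical members of this family equally well are missing. The levels of single members are therefore uncertain.

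The neighbours of Ugt2b in the gene order did not all share this pattern. Ugt2b17 had 218, 189.5, 198, 113, 270.4, 353, 286 and 314 CPM in Controls 1 to 8, lowest in Control 4 too, and was above the trend. Ugt2a3, also above the trend, had 98.2 CPM in Control 5 to 215 CPM in Control 2. Ugt2b35 varied by 7.26%, with 415 CPM in Control 5 to 513 CPM in Control 6, and Ugt2b10 and Ugt2b37 by 20.7% and 21.6%, and none of these 3 was above the trend. Ugt2b17 was not above it without Control 4, nor Ugt2a3 without Control 2, when its coefficient fell from 27.5% to 17.8%. Ugt2b37 was highest in Control 4, with 408 CPM against 264 CPM in the next rat, and its coefficient fell from 21.6% to 7.37% without Control 4.

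Mmd2, a membrane protein of the progestin and adipoQ receptor family, had 51.9, 48.5, 40.1, 0.439, 39.7, 57.8, 40.8 and 28.6 CPM in Controls 1 to 8. Control 4 alone was low, and without it the coefficient fell from 95.3% to 22.3% and the call was lost. In all 31 livers 2 had 19.4 to 29.4 normalised counts, 1 of them a control, and 29 had 261 to 2548. Apof, which encodes apolipoprotein F of plasma lipoproteins, went the other way with 54.5, 44.8, 52.7, 375, 57.3, 62.1, 44.1 and 47.6 CPM in Controls 1 to 8. Control 4 alone was high, and its coefficient of 82.4% fell to 12.7% without that rat, which ended the call. Over the 31 livers Apof fell into 3 ranges, 1739 to 3453 in 24 livers, 8477 to 9940 in 5 livers that were all treated, and 16587 to 16652 in 2 livers, 1 of them a control.

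Adh6, an alcohol dehydrogenase, was low in Control 2 alone, with 32.3 CPM in Control 2, a median of 199.9 CPM and 399 CPM in Control 7, and its coefficient fell from 62.2% to 33.2% without that rat. Nptx2, a secreted pentraxin, showed a split with several rats on each side, with 5.17, 5.21, 5.50, 39.6, 26.7, 30.4, 4.38 and 3.60 CPM in Controls 1 to 8. Controls 4 to 6 were high and the other 5 low. Scube3, a secreted signal protein, was split likewise with 2.70, 0.238, 0.232, 0.423, 0.310, 0.433, 2.91 and 2.77 CPM in Controls 1 to 8. Here Controls 1, 7 and 8 were high.

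In all, 28 of 535 genes above the trend with a symbol and at least 1 CPM had a step of 3-fold or more between adjacent rats in the order of their levels. In 19 of them 1 rat was apart, and in 9 there were 2 or more rats on each side, among them Cadps, Plekhd1, Zfp39 and RT1-N2. Of the 28 genes, 25 were also above the trend within the treated groups.

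**Figure D3:**
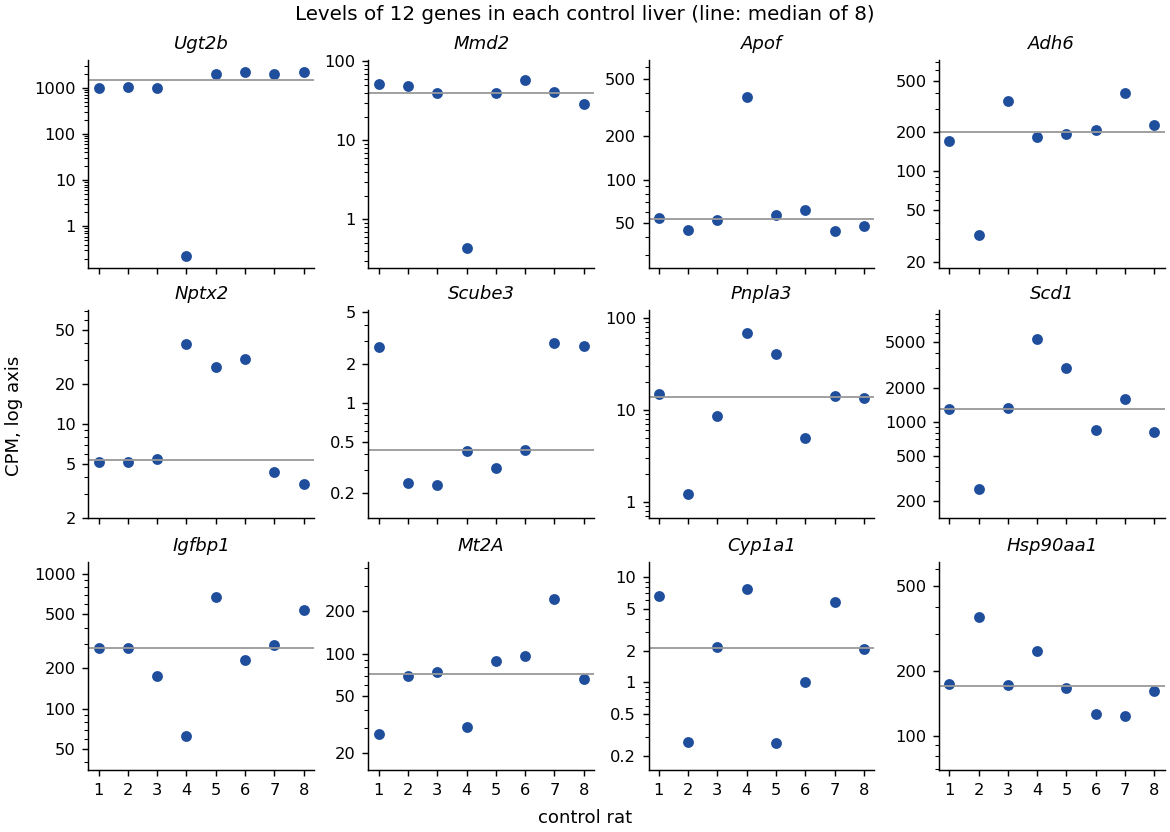
CPM on a log axis of 12 genes in each of the 8 control rats, with a line at the median. Control 4 is near 0 for Ugt2b and Mmd2 and high for Apof, Nptx2 is high in Controls 4 to 6, and Control 2 is lowest for Pnpla3, Scd1 and Adh6 and highest for Hsp90aa1.

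The genes above the trend were also set in their order along the chromosomes. Of 540 that could be placed in the gene order of the RefSeq table of build GRCr8, 97, or 17.96%, had another one as the next tested gene on either side, against 9.20% of all 11221 genes placed. Runs were formed by the class II genes RT1-Da, RT1-Db1, RT1-Ba and RT1-Bb, by the class I genes RT1-A3, RT1-A2 and RT1-A1, by Scube1, Mpped1, Pnpla5 and Pnpla3, by Inmt, Aqp1 and Adcyap1r1, by Osmr, Lifr and Gdnf, by Nr4a1, Krt2 and Krt79, and by Ugt2a3, Ugt2b and Ugt2b17. Many of these calls rested on 1 rat. Without Control 5 RT1-A3, RT1-A2 and RT1-A1 were no longer above the trend (coefficients of 47.5%, 33.2% and 38.4% with it, 23.5%, 19.3% and 18.1% without it), nor were RT1-Da, RT1-Bb and Gdnf. Calls of RT1-Da, RT1-Ba, RT1-Bb, Mpped1 and Adcyap1r1 ended without Control 3, that of Gdnf without Control 6, and that of Krt2 without Control 1, 2, 4 or 8. Osmr kept its call, but its coefficient fell from 48.8% to 31.7% without Control 2, and that of Krt2 from 50.7% to 30.5%. Near-identical copies such as the RT1 genes can share reads, and their part in this share was not tested.

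The list called fatty acid synthesis here also holds other genes that follow feeding, such as Pnpla3. With all 8 rats, it had the largest share above the trend of any list with at least 10 genes tested. After a meal, insulin and sugar induce genes of fatty acid synthesis through SREBP1 and ChREBP, and fasting switches them off. Of the 22 genes of the list that were tested, 15 were above the trend (11 without Control 2, when immediate early genes had 12 of 21, and 11 without Control 4). Their median coefficient was 34.5%, against 11.2% over all genes. As a mean over the list, Control 2 lay 0.91 log2 units below the average of the 8 rats and Control 4 0.83 above it.

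Pnpla3, a lipid droplet hydrolase, had 14.9, 1.22, 8.58, 67.4, 40.1, 5.001, 14.1 and 13.4 CPM in Controls 1 to 8. Its neighbour Pnpla5, another lipase of that family, had 0.863 CPM in Control 2, a median of 6.61 CPM and 21.8 CPM in Control 5. The delta-9 desaturase Scd1, the enzyme that makes oleic acid, had 256 CPM in Control 2, a median of 1302 CPM and 5386 CPM in Control 4. Control 2 was the lowest for all 3 genes, and Controls 4 and 5 were the highest. The gene listed as Scd, a second desaturase of that family, had 50.2 CPM in Control 6, a median of 132 CPM and 688 CPM in Control 4, and reads of the 2 desaturases may be mixed.

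Further along this pathway, Fasn, the fatty acid synthase, had 703 CPM in Control 2, a median of 1233 CPM and 2267 CPM in Control 4. Acly, which supplies its acetyl-CoA, had 335 CPM in Control 3, a median of 501 CPM and 932 CPM in Control 4. Srebf1, their regulator, had 182 CPM in Control 2, a median of 559 CPM and 875 CPM in Control 1. Elovl6, the elongase after Fasn, had 0.774 CPM in Control 2, a median of 3.04 CPM and 5.84 CPM in Control 4. Control 4 was highest in these 4 genes but for Srebf1. Mlxipl, which encodes ChREBP, ran from 30.97 CPM in Control 2 to 74.4 CPM in Control 7. Of these genes Fasn and Acly were not above the trend without Control 4, nor were Srebf1, Elovl6 and Mlxipl without Control 2, and Mlxipl was not without Control 7 either. Without Control 2 the coefficient of Srebf1 fell from 42.5% to 23.6% and that of Mlxipl from 24.3% to 12.3%. Across the 8 rats Fasn and Srebf1 correlated with r = 0.66 (exact permutation test, two-sided, p = 0.0879, adjusted over the 10 pairs 0.155) and rho = 0.48 (p = 0.243, adjusted 0.486), and r was 0.015 without the 2 rats farthest from the median.

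Genes induced in fasting had 7 of 19 above the trend (5 without Control 2, 5 without Control 5) and a median coefficient of 20.9%. Igfbp1, a binding protein for insulin-like growth factors that insulin represses, had 280.5, 282, 175, 63.00, 677, 229, 299 and 539 CPM in Controls 1 to 8. Control 4 was lowest and Controls 5 and 8 were highest. Fgf21, a fasting hormone, had 1.31 CPM in Control 5, a median of 2.15 CPM and 7.26 CPM in Control 2. Irs2, an adapter of the insulin receptor, had 23.6 CPM in Control 4, a median of 53.3 CPM and 96.4 CPM in Control 5. Pck1, which encodes the key enzyme of glucose formation, was abundant, with 1451 CPM in Control 3, a median of 2381 CPM and 4509 CPM in Control 5. Control 5 was the highest for Igfbp1, Irs2 and Pck1 and the lowest for Fgf21, and Pck1 was not above the trend without it.

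Cholesterol synthesis varied less, with 5 of 24 genes above the trend and a median of 16.4%. Hmgcs1, which makes the precursor of mevalonate, had 503 CPM in Control 3, a median of 746 CPM and 1428 CPM in Control 8. Sqle, the squalene epoxidase, had 33.6 CPM in Control 3, a median of 57.3 CPM and 98.6 CPM in Control 2. Idi1, an isomerase of the same chain, had 16.3 CPM in Control 3, a median of 24.2 CPM and 48.9 CPM in Control 2. Control 3 was the lowest for each of these. Sqle and Hmgcs1 went closely together, with r = 0.96 (exact permutation test, two-sided, p = 0.000322, adjusted 0.00322), rho = 0.90 (p = 0.00456, adjusted 0.0152) and r = 0.94 without the 2 farthest rats. In bile acid handling 4 of 19 genes were above the trend. Among them was Cyp7a1, the rate-limiting enzyme of bile acid synthesis, with 80.4 CPM in Control 4, a median of 278 CPM and 378 CPM in Control 8. Sqle and Cyp7a1 showed no detectable relation (r = -0.25, exact permutation p = 0.571, adjusted 0.713; rho = -0.07, p = 0.882, adjusted 0.882; r = 0.034 without the 2 farthest rats).

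**Figure D4:**
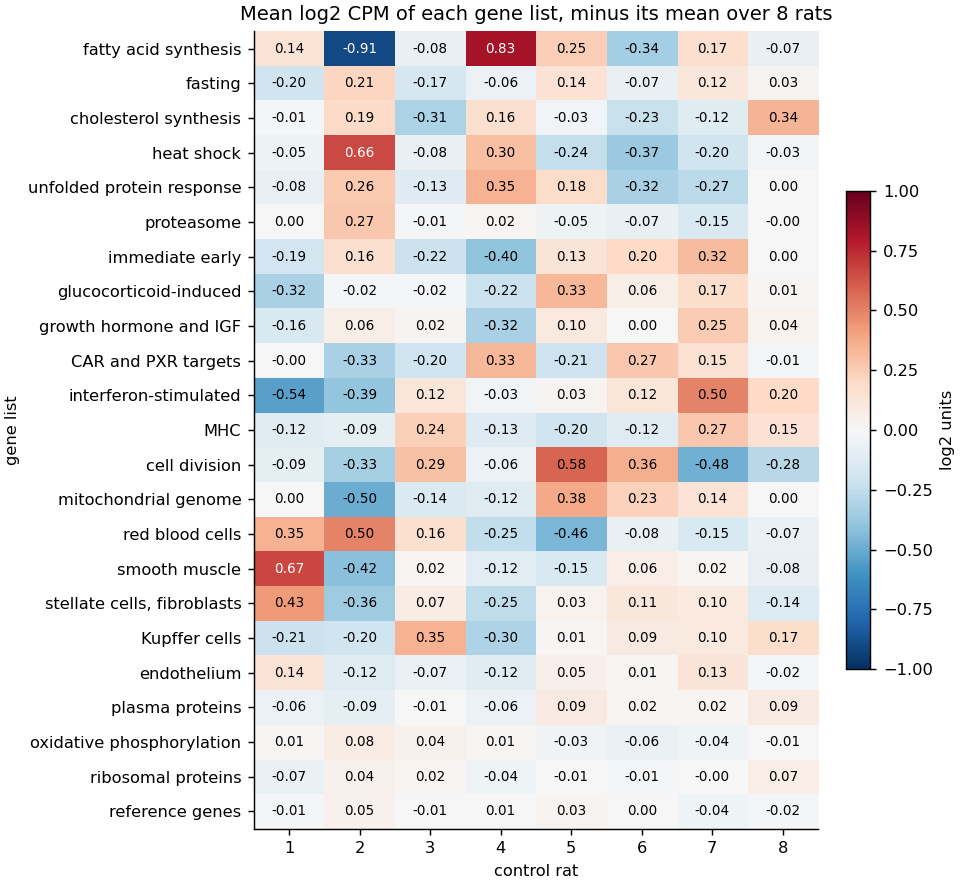
Mean log2 CPM of 23 gene lists in each of the 8 control rats, minus the mean over rats, with the value printed in each field and red for higher, blue for lower. Control 2 is lowest for fatty acid synthesis (-0.91) and highest for heat shock (0.66), Control 4 is highest for fatty acid synthesis (0.83), and ribosomal proteins and reference genes stay within 0.1 of their mean. The row labelled fatty acid synthesis also holds other genes that follow feeding.

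Chaperone genes of the heat shock response, which heat shock factor 1 induces when proteins unfold, formed a second group. Of 16 tested, 9 were above the trend, with a median coefficient of 25.8%, but only 5 were so without Control 2. Control 2 averaged 0.66 log2 units above the mean of the rats. Hsp90aa1, the inducible HSP90, had 174, 359.9, 173, 249.9, 166, 126, 124 and 162 CPM in Controls 1 to 8. Hspb1, a small chaperone, had 5.60 CPM in Control 5, a median of 11.3 CPM and 19.9 CPM in Control 2. Hsph1, a partner of HSP70, had 47.6 CPM in Control 6, a median of 71.9 CPM and 132 CPM in Control 2. Hspa1b, an inducible HSP70, was low in general, with 0.251 CPM in Control 5, a median of 0.934 CPM and 3.06 CPM in Control 2. Control 2 was the highest in all of these, and without it the coefficient of Hsp90aa1 fell from 36.5% to 23.9%. Hspb1 was not above the trend without Control 5. By the paper, all RNA samples lay above a high lower limit of RNA integrity. Values for single libraries were not used here. The mitochondrial chaperones Hspd1 and Hspe1 varied by only 6.02% and 8.31%.

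The promoters of members of this group were searched for a short form of the heat shock element, GAANNTTC, on both strands, in the 250 bases before the start of the gene in RefSeq (build GRCr8). Of 14 tested genes with a promoter in the table, 4 of the 7 above the trend and 5 of the other 7 held at least 1 match, against 7.23% of all 33469 promoters. The 4 promoters with a match among the genes above the trend are printed 5′ to 3′ on the gene's strand with the matches in capitals, to show where these letters stand in genes that were all highest in Control 2. They lie at chr12:26432302-26432551, minus strand (Hspb1), chr12:10427118-10427367, plus strand (Hsph1), chr1:192533210-192533459, plus strand (Bag3) and chr19:41431142-41431391, minus strand (Dnajb1).
Hspb1: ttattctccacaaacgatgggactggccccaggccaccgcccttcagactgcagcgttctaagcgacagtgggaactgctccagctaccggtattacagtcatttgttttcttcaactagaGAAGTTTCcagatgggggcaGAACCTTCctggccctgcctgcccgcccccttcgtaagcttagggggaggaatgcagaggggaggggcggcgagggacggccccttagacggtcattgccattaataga
Hsph1: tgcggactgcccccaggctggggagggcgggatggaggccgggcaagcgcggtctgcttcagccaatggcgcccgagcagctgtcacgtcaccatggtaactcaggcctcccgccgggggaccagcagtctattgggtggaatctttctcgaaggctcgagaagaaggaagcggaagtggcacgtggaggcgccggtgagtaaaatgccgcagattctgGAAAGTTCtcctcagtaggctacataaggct
Bag3: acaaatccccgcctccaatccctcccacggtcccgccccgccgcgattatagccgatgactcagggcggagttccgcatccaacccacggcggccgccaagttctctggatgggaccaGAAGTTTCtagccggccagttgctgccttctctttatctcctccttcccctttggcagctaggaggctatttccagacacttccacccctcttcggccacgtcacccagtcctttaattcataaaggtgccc
Dnajb1: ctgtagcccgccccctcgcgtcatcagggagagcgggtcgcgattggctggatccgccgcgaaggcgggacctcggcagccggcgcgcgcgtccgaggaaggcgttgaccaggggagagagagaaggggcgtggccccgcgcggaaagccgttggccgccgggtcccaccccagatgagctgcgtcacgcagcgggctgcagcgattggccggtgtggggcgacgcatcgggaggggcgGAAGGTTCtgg
Hspb1 holds 2 matches and the other promoters 1 each, and a match is not by itself a binding site. Bag3, a cochaperone, had 14.8 CPM in Control 7, a median of 18.99 CPM and 37.9 CPM in Control 2. Dnajb1, an HSP40, had 29.6 CPM in Control 6, a median of 38.98 CPM and 66.8 CPM in Control 2. Neither was above the trend without Control 2, nor Dnajb1 without Control 6.

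Stress genes of the endoplasmic reticulum had 8 of 22 above the trend (5 without Control 4, 6 or 7) and a median of 23.4%. Trib3, a pseudokinase of the integrated stress response, had 1.51 CPM in Control 6, a median of 2.61 CPM and 7.23 CPM in Control 2. Sesn2, a stress-induced sestrin, had 21.9 CPM in Control 2, a median of 28.3 CPM and 70.8 CPM in Control 5. Creld2, a chaperone of the endoplasmic reticulum, had 19.03 CPM in Control 7, a median of 31.2 CPM and 56.1 CPM in Control 4. Control 2 was highest for Trib3, but Controls 5 and 4 were for Sesn2 and Creld2. Without Control 5 Sesn2 lost its call and its coefficient fell from 39.6% to 18.5%. Hspa5, the main chaperone there, was abundant but not above the trend, with 663 CPM in Control 7 to 1239.6 CPM in Control 4. The proteasome had no member of 37 above the trend (edgeR dispersions, 0 at an unadjusted p under 0.05, 0 outliers of DESeq2). A count of 0 in 37 is near the 4.93% of all genes tested, and does not set this list apart. Its median coefficient was 10.3%. The list was not level among rats: Control 2 lay 0.27 log2 units above the mean, and the sum ran from 2256 CPM in Control 7 to 3028 CPM in Control 2.

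Metallothioneins, small proteins that bind zinc and copper and that metals and glucocorticoids induce, differed several-fold. Mt2A had 27.3, 70.04, 74.3, 30.6, 88.4, 96.9, 244 and 66.5 CPM in Controls 1 to 8. Mt1a, the gene RefSeq calls Mt1, had 97.6, 117, 184, 74.8, 195, 233, 447 and 168 CPM in Controls 1 to 8. Control 7 was the highest and Controls 1 and 4 were the lowest for both. Their coefficients were 67.3% and 55.3%, and 46.2% for Mt2A without Control 7. Over all 20 genes of metal handling, 6 were above the trend (3 without Control 7). The other genes with the largest spread were Mt1m, with 0.237 CPM in Control 1 to 1.89 CPM in Control 7, and the gene listed as MT1, with 0.787 CPM in Control 4 to 4.90 CPM in Control 7. Neither was above the trend without Control 7, nor Mt1m without Control 1. Hamp, the iron hormone hepcidin, was not above the trend, at 98.9 CPM in Control 4 to 171 CPM in Control 1. Reads of metallothionein copies may be mixed.

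The 250 bases before Mt1 and Mt2A carry the core of the metal response element, searched as TGCACNC and TGCGCNC on both strands, in 6 and 4 places, none of which overlap. Either form was found in 20.6% of all 33469 promoters, TGCACNC in 10.3% and TGCGCNC in 11.8%. The 2 sequences, at chr19:10832976-10833225, minus strand (Mt1) and chr19:10838709-10838958, minus strand (Mt2A) of build GRCr8, are given as these genes lie side by side and were highest in the same rat, with the matches in capitals.
Mt1: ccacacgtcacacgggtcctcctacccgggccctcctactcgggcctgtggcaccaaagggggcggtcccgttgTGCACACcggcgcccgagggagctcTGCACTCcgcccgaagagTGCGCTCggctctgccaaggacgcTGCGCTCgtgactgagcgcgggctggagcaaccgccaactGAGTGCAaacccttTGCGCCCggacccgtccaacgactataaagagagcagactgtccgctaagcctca
Mt2A: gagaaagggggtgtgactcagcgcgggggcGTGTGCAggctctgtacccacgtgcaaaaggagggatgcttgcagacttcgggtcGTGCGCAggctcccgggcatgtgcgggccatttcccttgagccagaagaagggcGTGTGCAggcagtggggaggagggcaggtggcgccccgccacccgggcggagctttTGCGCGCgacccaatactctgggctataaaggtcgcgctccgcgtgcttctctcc

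Immediate early genes, which rise within minutes of a stimulus, had 11 of 21 members above the trend (12 without Control 2) and a median of 33.5%. Atf3, a stress-induced factor, had 0.469 CPM in Control 4, a median of 1.32 CPM and 3.57 CPM in Control 8. Nr4a1, an orphan nuclear receptor, had 0.363 CPM in Control 4, a median of 1.23 CPM and 2.40 CPM in Control 8, and Myc, a growth regulator, had 5.10 CPM in Control 1, a median of 12.2 CPM and 23.3 CPM in Control 7. Atf3 and Nr4a1 shared their lowest and highest rats, and Myc did not. Egr1, an early growth response factor, had 17.4 CPM in Control 4, a median of 28.7 CPM and 59.6 CPM in Control 7. Fos, a subunit of AP-1, had 2.25 CPM in Control 3, a median of 4.30 CPM and 9.18 CPM in Control 6. Control 4 was lowest for 3 of these 5 genes, but no rat was highest in more than 2. Fos was not above the trend without Control 6. Fos and Egr1 were not detectably related over the rats (r = 0.44, exact permutation p = 0.278, adjusted 0.398; rho = 0.55, p = 0.171, adjusted 0.427; r = 0.27 without the 2 farthest rats). Glucocorticoid-induced genes had 8 of 16 above the trend (5 without Control 5) and a median of 24.8%, and share several members with the lists above. Tat, a tyrosine aminotransferase induced by corticosterone, had 659 CPM in Control 7, a median of 1049.6 CPM and 1992 CPM in Control 5. Sds, a serine dehydratase, had 27.2 CPM in Control 2, a median of 71.1 CPM and 143 CPM in Control 5. Control 5 was highest for both, and without it Tat was not above the trend. Of 10 clock genes in the phase of Dbp, 2 were above the trend (none without Control 5, 1 without Control 4, 7 or 8), and of 6 in the phase of ARNTL, none (edgeR dispersions, 0 at an unadjusted p under 0.05, 0 outliers of DESeq2). For the ARNTL phase, none of so few genes is near the 4.93% of all genes tested. Dbp had 3.99 CPM in Control 4, a median of 5.35 CPM and 7.51 CPM in Control 3, whereas ARNTL, a core clock activator, differed by only 3.96% with 50.4 CPM in Control 4 to 57.2 CPM in Control 2. Dbp with ARNTL gave r = 0.14 (exact permutation p = 0.737, adjusted 0.819; rho = 0.24, p = 0.582, adjusted 0.728; r = 0.23 without the 2 farthest rats), and Dbp with Per3 gave r = -0.08 (p = 0.847, adjusted 0.847; rho = -0.17, p = 0.703, adjusted 0.781; r = -0.05).

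Growth hormone and insulin-like growth factor signalling had 8 of 19 members above the trend. Socs2, a feedback inhibitor that growth hormone induces, had 7.98 CPM in Control 1, a median of 19.6 CPM and 51.6 CPM in Control 3. Serpina7, the thyroxine-binding globulin, had 3.06 CPM in Control 4, a median of 8.87 CPM and 16.04 CPM in Control 7. Igfbp4, which binds the insulin-like growth factors, had 1178 CPM in Control 7, a median of 1299 CPM and 1907 CPM in Control 2 and was not above the trend. The female liver genes Cyp2c12, Srd5a1, Sult2a1, Cyp2a1, A1bg, Prlr and Cux2 had 0 of 7 above the trend (edgeR dispersions, 2 at an unadjusted p under 0.05 by each test, 0 outliers of DESeq2), and Cyp2c12 itself varied by 6.84%. In so few genes a count of 0 is near the 4.93% of all genes tested.

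Drug metabolism genes that the nuclear receptors CAR and PXR switch on had 8 of 15 above the trend and a median of 30.5%. Cyp2b2, a barbiturate-inducible cytochrome, had 2.49, 1.49, 2.69, 4.67, 4.55, 11.9, 9.75 and 10.4 CPM in Controls 1 to 8. Controls 6 to 8 were the highest and Control 2 the lowest. Cyp3a62 had 0.240 CPM in Control 8, a median of 1.38 CPM and 1.58 CPM in Control 6. Abcc3, an export pump, had 6.91 CPM in Control 3, a median of 9.23 CPM and 24.8 CPM in Control 4. Without Control 4 Abcc3 lost its call and its coefficient fell from 41.7% to 12.9%, and Cyp3a62 lost it without Control 5 or 8 (from 50.5% to 27.4% without Control 8). Cyp2b1, a close relative of Cyp2b2, followed it with r = 0.89 (exact permutation test, two-sided, p = 0.00149, adjusted 0.00496), rho = 0.90 (p = 0.00456, adjusted 0.0152) and r = 0.88 without the 2 farthest rats, but reads of the pair may be mixed. Nr1i3, which encodes CAR, was itself above the trend with 2.83 CPM in Control 3, a median of 7.62 CPM and 15.9 CPM in Control 6. Among targets of the aryl hydrocarbon receptor, 2 of 4 were above the trend (1 without Control 1, 4 or 6). Cyp1a1, which it induces from near 0, had 6.56, 0.268, 2.16, 7.67, 0.263, 1.000, 5.83 and 2.08 CPM in Controls 1 to 8. Controls 2 and 5 were more than 3-fold below the others.

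Interferon-stimulated genes, which answer viral and other nucleic acids, had 10 of 36 above the trend (6 without Control 1) and a median of 26.5%. As a list they lay 0.54 log2 units below the mean in Control 1 and 0.50 above it in Control 7. Ifit1, a sensor of viral RNA, had 0.982 CPM in Control 2, a median of 4.37 CPM and 15.9 CPM in Control 7. Oas1a, an oligoadenylate synthetase, had 1.18 CPM in Control 1, a median of 4.17 CPM and 8.74 CPM in Control 7. Mx2, an antiviral GTPase, had 6.55 CPM in Control 1, a median of 21.6 CPM and 47.7 CPM in Control 4. Control 7 was highest for Ifit1 and Oas1a, but Control 4 for Mx2. Antigen presentation had 15 of 36 above the trend (8 without Control 5). RT1-N2, a class I gene, had 9.95, 11.7, 15.00, 13.9, 47.7, 6.11, 55.3 and 48.8 CPM in Controls 1 to 8, so that Controls 5, 7 and 8 were high. RT1-N3 had 4.11 CPM in Control 2, a median of 6.60 CPM and 19.03 CPM in Control 7. RT1-A3 had 24.2 CPM in Control 5, a median of 97.9 CPM and 132 CPM in Control 3. RT1 genes have near-identical copies, and their single levels are uncertain. Of the acute phase genes, 4 of 22 were above the trend (2 without Control 2), and Cxcl1, a chemokine for neutrophils, had 3.15 CPM in Control 1, a median of 7.70 CPM and 23.9 CPM in Control 6. A2m with Lcn2 gave r = -0.64 (exact permutation p = 0.0817, adjusted 0.155; rho = -0.31, p = 0.462, adjusted 0.660), and r = 0.61 without the 2 farthest rats.

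Markers of other liver cells were looked at in the same way. Of 22 markers of stellate cells and fibroblasts, 5 were above the trend (2 without Control 1), and Control 1 lay 0.43 log2 units above the mean and Control 2 0.36 below it. Dcn, the matrix proteoglycan decorin, had 2.63 CPM in Control 4, a median of 5.005 CPM and 17.8 CPM in Control 1. Gsn, an actin-severing protein, had 8.14 CPM in Control 4, a median of 11.7 CPM and 38.7 CPM in Control 1. Control 1 was more than 2-fold above the median for both, and neither was above the trend without it, when their coefficients fell from 57.8% to 24.6% and from 53.1% to 24.3%. Of 9 smooth muscle markers, 3 were above the trend (none without Control 1), and Actg2, a muscle actin, had 0.533 CPM in Control 8, a median of 0.702 CPM and 3.10 CPM in Control 1. Its coefficient fell from 62.3% to 2.90% without Control 1. Summed, the 11 smooth muscle markers ran from 168 CPM in Control 2 to 229.9 CPM in Control 1 and the 24 stellate markers from 678 to 1018 CPM in the same rats, with no marker of either list at 0 in all rats. Their part in the spread of other genes was not tested. Of 19 Kupffer cell markers 3 were above the trend, led by Marco, a scavenger receptor, with 14.04 CPM in Control 4, a median of 19.9 CPM and 41.4 CPM in Control 3. Their sum went from 769.9 CPM in Control 1 to 1143 CPM in Control 3. Of 19 endothelial markers none was above the trend (edgeR dispersions, 3 at an unadjusted p under 0.05, 0 outliers of DESeq2), with a median coefficient of 11.3%. With so few markers a count of 0 is near the 4.93% of all genes tested, and does not set this list apart.

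Red blood cell genes were low. Summed over 15 listed genes they came to 45.6 CPM in Control 5, 59.0 CPM in the median and 86.9 CPM in Control 2, and 3 of 7 tested were above the trend. Hba1, an alpha globin, had 9.21 CPM in Control 7, a median of 11.5 CPM and 32.3 CPM in Control 2. Haemoglobin genes have near-identical copies, and their single levels are uncertain. Genes of cell division were low too: 32 listed genes had a summed level of 18.6 to 42.1 CPM, and the 22 tested had a median coefficient of 35.3%, but only Mki67 and Top2a were above the trend, which is itself higher at low levels. Mki67 was not above it without Control 5 or 7. Mki67, a marker of cycling cells, and Top2a, a topoisomerase of dividing cells, had 1.73 CPM in Control 7 to 5.29 CPM in Control 5 and 1.31 CPM in Control 2 to 5.02 CPM in Control 5. They went together with r = 0.94 (exact permutation test, two-sided, p = 0.00126, adjusted 0.00496), rho = 0.95 (p = 0.00114, adjusted 0.0114) and r = 0.91 without the 2 farthest rats.

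At the other end stood the machinery shared by all cells. Of 82 ribosomal protein genes 1 was above the trend, with a median coefficient of 5.35%, and of 75 nuclear genes of oxidative phosphorylation 1 (none without Control 3), with 5.26%. Plasma proteins had 2 of 52, or 3.85%, near the 4.93% of all genes tested, namely Igfbp2 with 9.58 CPM in Control 3 to 33.2 CPM in Control 8 and Mug2 with 80.7 CPM in Control 2 to 258 CPM in Control 7, and a median of 8.21%. The 13 mitochondrial mRNAs were looser, with a median of 22.7% and 2 above the trend (1 without Control 2, 3, 5 or 7). As a list they were 0.50 log2 units below the mean in Control 2.

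Genes commonly used to normalise differed in stability. Sdha, a subunit of succinate dehydrogenase, varied by 3.50% with 298 CPM in Control 8 to 327 CPM in Control 5. Ppia, a cyclophilin, varied by 3.64% and Rpl13a, a ribosomal protein, by 4.20%. Gapdh and Actb varied by 10.8% and 9.55%, at 518 CPM in Control 8 to 715 CPM in Control 4 and 646 CPM in Control 7 to 868 CPM in Control 2. Polr2a and Tfrc were above the trend, with 15.00 CPM in Control 2 to 30.99 CPM in Control 5 and 30.7 CPM in Control 2 to 64.1 CPM in Control 1. Tfrc was not above it without Control 1, 2, 3, 7 or 8, nor Polr2a without Control 5. The estimate reached its lower limit of 0.988% for 237 genes, for which no spread beyond counting noise was measured. Among those with a symbol and at least 10 CPM, the most abundant were Fto (36.9 CPM), Arsa (35.4 CPM), Mrpl2 (28.5 CPM), Adam17, Zfp148, Dennd6a, Cog7, Lrig2, Rap1a and Smchd1.

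Genes that varied among the controls mostly varied among rats on 1 treatment too. Of the 611 genes above the trend among controls, 453, or 74.1%, were above the trend within the 6 treated groups, when 890 of all 12382 genes, or 7.19%, were. With the test that allows for scatter, 82 of 13715 genes were called within the treated groups, or 0.598%. The median coefficient was 13.3% within treated groups against 11.2% among controls over the same genes, and the 2 coefficients correlated across genes with a Spearman rho of 0.70. Genes are not independent replicates, and no rat is in both estimates.

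Of the 20 genes with a symbol and at least 1 CPM that were ranked above, 19 were above the trend within the treated groups too, Lppr4 being the exception with 87.1% among the controls and 43.3% within treated groups. The 10 ranked at 50 CPM and more were all above the trend in both. Pnpla3 had 103% and 106%, Nptx2 93.9% and 98.7%, and Cyp7a1 52.2% and 62.1%. The fatty acid synthesis list had 16 of 22 genes above the trend within treated groups against 15 among controls, antigen presentation 16 of 36 against 15 (8 without Control 5), and heat shock 8 of 16 against 9 (5 without Control 2). Other lists differed more: cell division had 21 of 22 against 2 (1 without Control 5 or 7), histones 18 of 33 against 2 (1 without Control 5 or 6), smooth muscle 0 of 9 (edgeR dispersions, 0 at an unadjusted p under 0.05) against 3 (none without Control 1), stellate cells 1 of 22 against 5 (2 without Control 1) and mitochondrial mRNAs 0 of 13 (3 at an unadjusted p under 0.05) against 2. Of all 12382 genes, 7.19% were above the trend within the treated groups and 4.93% among controls. Counts of 0 or 1 in such short lists lie near these shares. These differences between treated and control rats were not tested. The counts rest on 23 treated rats against 8 controls, each set with its own trend, so they are not on equal terms.

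**Figure D5:**
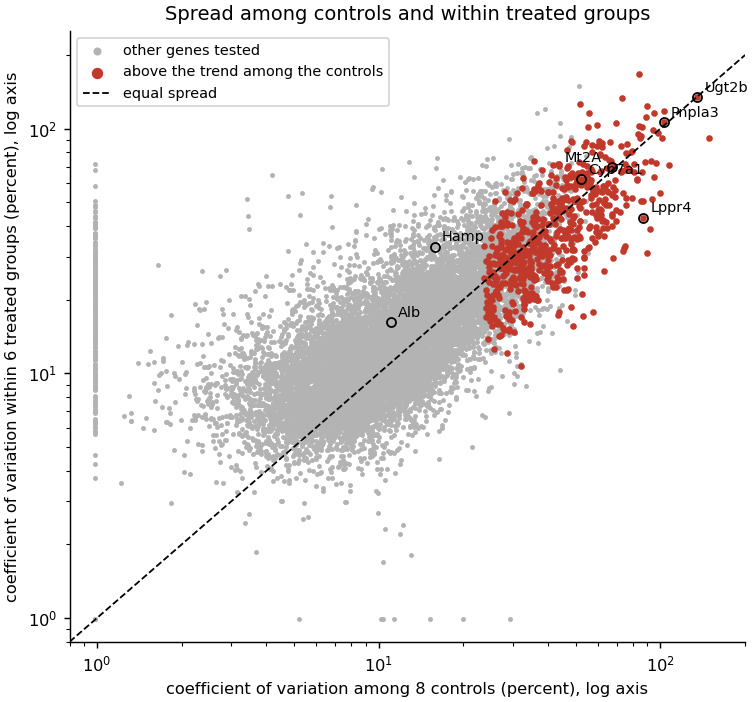
Coefficient of variation within the 6 treated groups against that among the 8 controls, in percent on log axes, for 12382 genes, with the 611 above the trend among controls in red and a dashed line for equal spread. Ugt2b, Pnpla3, Mt2A and Cyp7a1 lie near the line, and Lppr4 lies below it.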

How the data were processed

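Livers of 31 female rats were sequenced as stranded total RNA with paired-end reads of 100 bases. The authors trimmed adapters with Skewer, checked reads with FastQC 0.11.5, and used STAR 2.5.2b for mapping against Rnor_5.0 and for gene counts. By their supplement, the reads taken further were those that mapped uniquely. The annotation release and the strand setting are not given in the sources used here. The deposited counts are whole numbers per gene without normalization. The other deposited file gives a signal, namely these counts over the DESeq2 (1.15.1) size factor of each library, and all 159232 control values gave back whole reads (tolerance 0.01), the same as the counts. Groups and replicate numbers came from the sample labels. That the 8 controls came from separate animals is taken from the labels. No pair of libraries agreed within sampling noise.

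Counts were analysed with edgeR 4.0.16, limma 3.58.1 and DESeq2 1.42.0 in R 4.3.3, and with Python 3.11.15. Genes were kept by filterByExpr, scaled by TMM, and fitted with 1 mean over the controls, or 1 mean per treated group. The tests asked whether the spread exceeded counting noise (deviance at dispersion 0) or the trend of dispersion with abundance (F test with squeezeVar, or chi-square on the deviance with the trend taken as known), with Benjamini-Hochberg adjustment and a threshold of 0.05. The coefficient of variation is the square root of the gene-wise dispersion. Its error was found by leaving out each rat. The 10 pairs of genes were tested by enumerating all 40320 pairings of log2 CPM (prior count 2), and 1 of them is not reported here. Scripts were tested on simulated counts. Depth ran from 32.7 M to 101 M counts, so counting noise is small above 10 CPM and large under 1 CPM.

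Members and the 45 gene lists were chosen with earlier results of these data known. Named genes are the 20 most abundant, the 20 most variable above the trend with a symbol and a mean of at least 1 CPM, the 10 most variable with a symbol and at least 50 CPM, the 10 least variable with at least 10 CPM, of each list the most abundant and up to 3 most variable members, the genes of the pairs, the reference genes and the sex-biased genes. The rule on variable genes uses the test with the trend taken as known, as the planned test called 1 gene. Other genes named were picked after their values were seen. Promoters are from RefSeq, and 11221 of 11901 symbols matched its table. A genome or annotation of Rnor_5.0 was not used here.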

Additional observations from a re-analysis of the deposited data

Results flagged for a closer look

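For each measure in the 8 control rats, the gap between the farthest rat and the next was set against the whole range (log2 CPM for genes), and 24 of 163 measures looked at had a rat that stood apart. Chance flags about 1 in 20 groups, and these genes were partly named for their spread.

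Control 2 stood apart in 9 genes. It was lowest for Adh6 (32.3 CPM, the next rat 172 CPM), Ahsg (7806 CPM, next 9600 CPM), Cpamd8 (4219 CPM, next 7219 CPM), Cps1 (5018 CPM, next 7228 CPM), Krt2 (0.268 CPM, next 0.773 CPM), Mlxipl (31.0 CPM, next 50.4 CPM), Mug1 (3905 CPM, next 5464 CPM) and Srebf1 (182 CPM, next 459.6 CPM). It was highest for Igfbp4 (1907 CPM, next 1426 CPM).

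Control 4 stood apart in 6 genes. It was lowest for Ugt2b (0.227 CPM, the next rat 974 CPM), Mmd2 (0.439 CPM, next 28.6 CPM) and Prlr (216 CPM, next 359 CPM), and highest for Apof (375 CPM, next 62.1 CPM), Abcc3 (24.8 CPM, next 10.9 CPM) and Ugt2b37 (408 CPM, next 264 CPM).

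Control 1 was far above the next rat for ENSRNOG00000048890 (226 CPM, next 13.4 CPM), Dcn (17.8 CPM, next 6.21 CPM) and Actg2 (3.10 CPM, next 0.896 CPM), and below it for Sult2a1 (1877 CPM, next 2397 CPM). Control 5 was lowest for RT1-A1 (41.3 CPM, next 111 CPM) and RT1-A3 (24.2 CPM, next 74.5 CPM), and its share of counts in the 10 most abundant genes (30.6%) was above that of the next rat (28.0%). Abcd2 was highest in Control 6 (10.6 CPM, next 2.17 CPM) and Lppr4 in Control 7 (7.08 CPM, next 1.33 CPM).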

How the results depend on the processing

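The number of genes above counting noise stayed between 10030 and 11424 under every alternative run, and between 11085 and 11418 with 1 rat left out. Genes were kept by filterByExpr in all of these runs, so dependence on the filter was not tested. The share of the 10 most abundant genes was 27.5% to 28.1% with 1 rat left out. The median coefficient of variation was 10.1% to 11.5% with 1 rat left out, the lowest of these without Control 2. Genes above the trend, with the scatter of genes allowed for, numbered 1 as reported. They were 2 with the size factors of DESeq2, 14 with counts thinned to the smallest library and 0 without the robust option. With 1 rat left out they were 0 to 24, of which 24 without Control 2. Other tests gave 238 dispersion outliers of DESeq2 (all 238 among the 611), and 611 genes with the trend taken as known, which does not allow for scatter. Within treated groups the 82 became 0 without the robust option, 53 without IMZ + CTD and 53 without THI + CTD. With the trend taken as known, 1217 were called there. The 611 genes were 601 with size factors of DESeq2, 540 thinned and 518 to 561 with 1 rat left out. These counts depend on how the scatter around the trend is treated, and calls of single genes are therefore a ranking. The number of gene pairs past the threshold was 3 to 4 with 1 rat left out. Of 3133 values of coefficients of the named genes under alternatives, 3023 moved by less than their jackknife error. Most of these alternatives left out 1 rat, and the error comes from the same fits, so this count does not test stability. No paired analysis was possible because the 8 controls are 1 group and were not set against another group. Depth limits genes under 1 CPM, where counting noise had a median of 17.1%.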
